A study of Mus musculus with 39 samples.

Results

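Normal pre-B cells were set against normal pro-B cells of mouse bone marrow. All arrays titled pre-B or pro-B were taken, 8 pre-B and 6 pro-B arrays, which are 14 of the 39 arrays of the series. The pre-B cells were sorted as B220+ CD43- IgM- IgD- and the pro-B cells as B220+ CD43+ IgM- IgD-, so CD43 is the only marker that separates the gates. The labels describe the cells as purified from adult bone marrow and name no strain, genotype, exact age or treatment for them. The other arrays hold 6 immature B, 3 mature B and 16 leukemic pre-B samples. Total RNA was extracted with Trizol, and 20 ng of it was amplified to biotinylated cDNA. The labels do not say whether the arrays came from separate animals, so each p-value measures only how these samples spread, which may be technical.

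Pro-B cells join the D and J and then the V segments of the immunoglobulin heavy chain with the RAG recombinase. A cell that makes a heavy chain displays it with the surrogate light chain (Igll1 and Vpreb) and the signal chains Cd79a and Cd79b as the pre-B receptor. Signals of this receptor and of the interleukin-7 receptor make the large pre-B cells divide, after which small resting pre-B cells open and join the light chain genes.

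Values are log2 intensities, and a difference is the pre-B mean minus the pro-B mean on that scale. A gene was called at an adjusted p under 0.05 by limma over 12393 genes, in a fit of the 23 normal arrays. Genes were called higher in pre-B cells in 2214 cases (17.9%) and lower in 1948 cases (15.7%). The counts in the gene lists below are to be read beside these shares. The lower genes differed by more: 908 of them differed at least 2-fold and 294 at least 4-fold, against 360 and 28 of the higher genes. The 8 pre-B values all lay above the 6 pro-B values for 464 genes (3.74%) and all below them for 877 genes (7.08%). Of the higher calls, 600 concerned genes that were dim (mean log2 below 4.29, the 25th percentile) in both groups, against 54 of the lower calls. Over all genes the differences had a median of 0.11, which became -0.02 once the dimmest 40% were dropped.

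**Figure D1:**
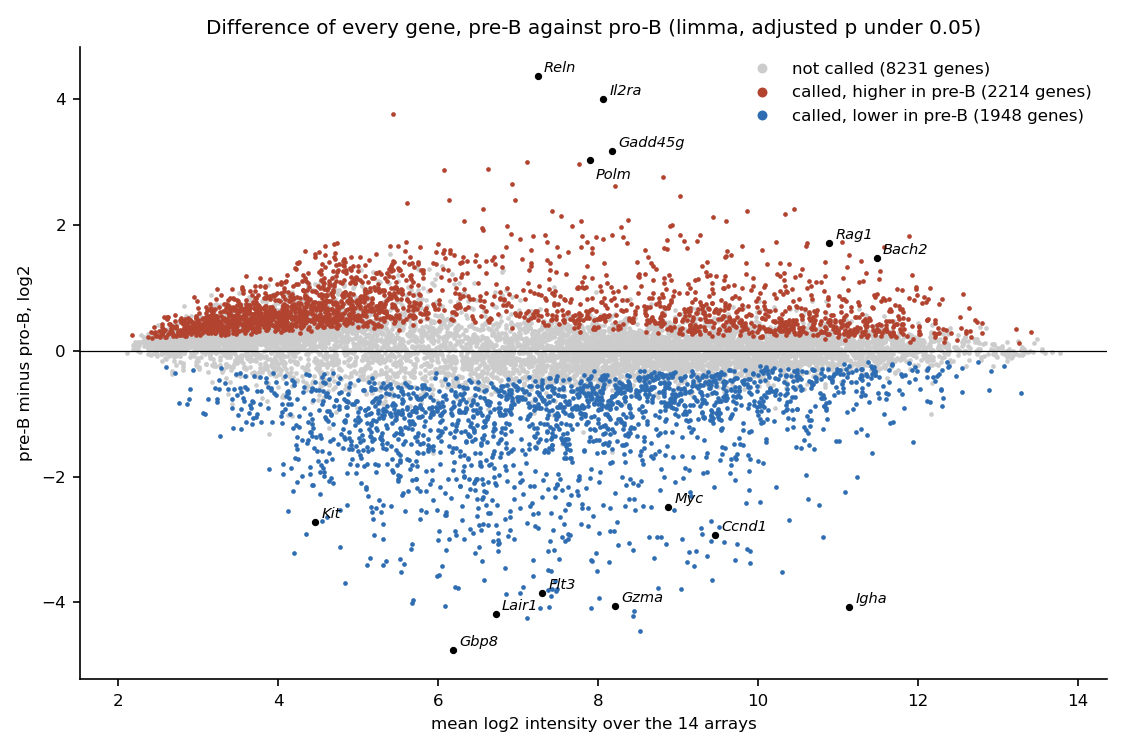
Difference between pre-B and pro-B arrays (vertical axis, log2) against the mean log2 intensity over the 14 arrays (horizontal axis) for each of the 12393 genes. Points are coloured by the limma call, 2214 higher and 1948 lower in pre-B cells. The lower genes reach further from 0 than the higher ones, and many higher calls lie among dim genes at the left.

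Array medians lay between 6.37 and 6.76 (log2), and arrays correlated across genes at 0.9425 to 0.9924 within pre-B, 0.9704 to 0.996 within pro-B and 0.9181 to 0.9806 between the groups. The sample records form 2 runs that no label calls a batch, with pre-B arrays 5 to 8 and pro-B arrays 4 to 6 in run 1 and the others in run 2. All 4162 called genes differed in the same direction within each run. They were called on these same arrays, so this agreement is largely built in. For a stage difference that itself differed between the runs, limma called 0 genes (0%), with 149 at an unadjusted p under 0.05. The actin control, whose 3' minus 5' value reports RNA and amplification quality, was at 1.07 ± 0.29 on pre-B and 1.01 ± 0.28 on pro-B arrays (SD, exact permutation test, two-sided, p = 0.671). The Gapdh control was at 1.15 ± 0.17 on pre-B and 1.04 ± 0.16 on pro-B arrays (exact permutation p = 0.238). The runs themselves differed in the actin control, which was 1.257 to 1.461 on pre-B and 1.216 to 1.293 on pro-B arrays of run 1, and 0.709 to 0.998 on pre-B and 0.661 to 0.921 on pro-B arrays of run 2.

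Transcripts of other cell types differed between the gates, and the values are given first because they touch many results. Markers of plasmacytoid dendritic cells (pDC, blood cells that carry B220 and make interferon) had a list mean of 6.65 to 8.70 on pre-B and 9.91 to 11.23 on pro-B arrays. Of the 13 measured, 11 fell and 1 rose in pre-B cells, with a median difference of -3.18, and their summed level (log2 of the sum) was 13.61 to 14.10 on pre-B and 14.58 to 15.65 on pro-B arrays. T and NK cell markers fell in 17 of 19 cases (median -3.19), with list means of 5.39 to 5.93 on pre-B and 7.64 to 9.09 on pro-B arrays and summed levels of 10.47 to 11.13 on pre-B and 12.84 to 14.12 on pro-B arrays. Of the T and NK markers 3 were dim in pre-B cells and 0 in pro-B cells. Of 20 neutrophil and monocyte markers 15 fell (median -1.38), with list means of 6.90 to 8.67 on pre-B and 9.02 to 9.49 on pro-B arrays and summed levels of 12.94 to 14.80 on pre-B and 14.96 to 15.42 on pro-B arrays. Without pro-B arrays 2, 4 and 6, described next, 8 of these 20 fell, as 8 did in run 2 alone and 6 in run 1 alone.

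Pro-B arrays 2, 4 and 6 stood apart from pro-B arrays 1, 3 and 5. Their pDC list means were 11 to 11.23, against 9.91 to 10.19 on arrays 1, 3 and 5, and their mitosis list means were 9.46 to 9.72, against 10.32 to 10.73. Without these 3 arrays, a setting added once the values had been looked at, limma called 2241 genes, 852 higher and 1389 lower. List counts without these arrays are to be read beside these totals over 12393 genes. Of the 4162 calls, 1911 were made again and 4161 had the same direction, in a fit that shares its arrays with the first. The mean of the 52 pDC, T, NK, neutrophil and monocyte markers was 6.56 to 7.46 on pre-B and 8.74 to 9.77 on pro-B arrays, with no overlap. With that mean as a covariate 31 genes were called, 27 higher and 4 lower, so the stage and the level of these transcripts cannot be told apart in most genes. Of the 31, 21 had been called in the same direction without it and 6 had not been called, and Rgs1 went from -2.15 to 5.73. The median of the immediate early and stress list went from 0.30 to 3.21. Because the marker mean did not overlap between the groups, estimates with this covariate are extrapolations. In sorted bulk cells, fewer cells of a type and less RNA per cell cannot be told apart either.

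**Figure D2:**
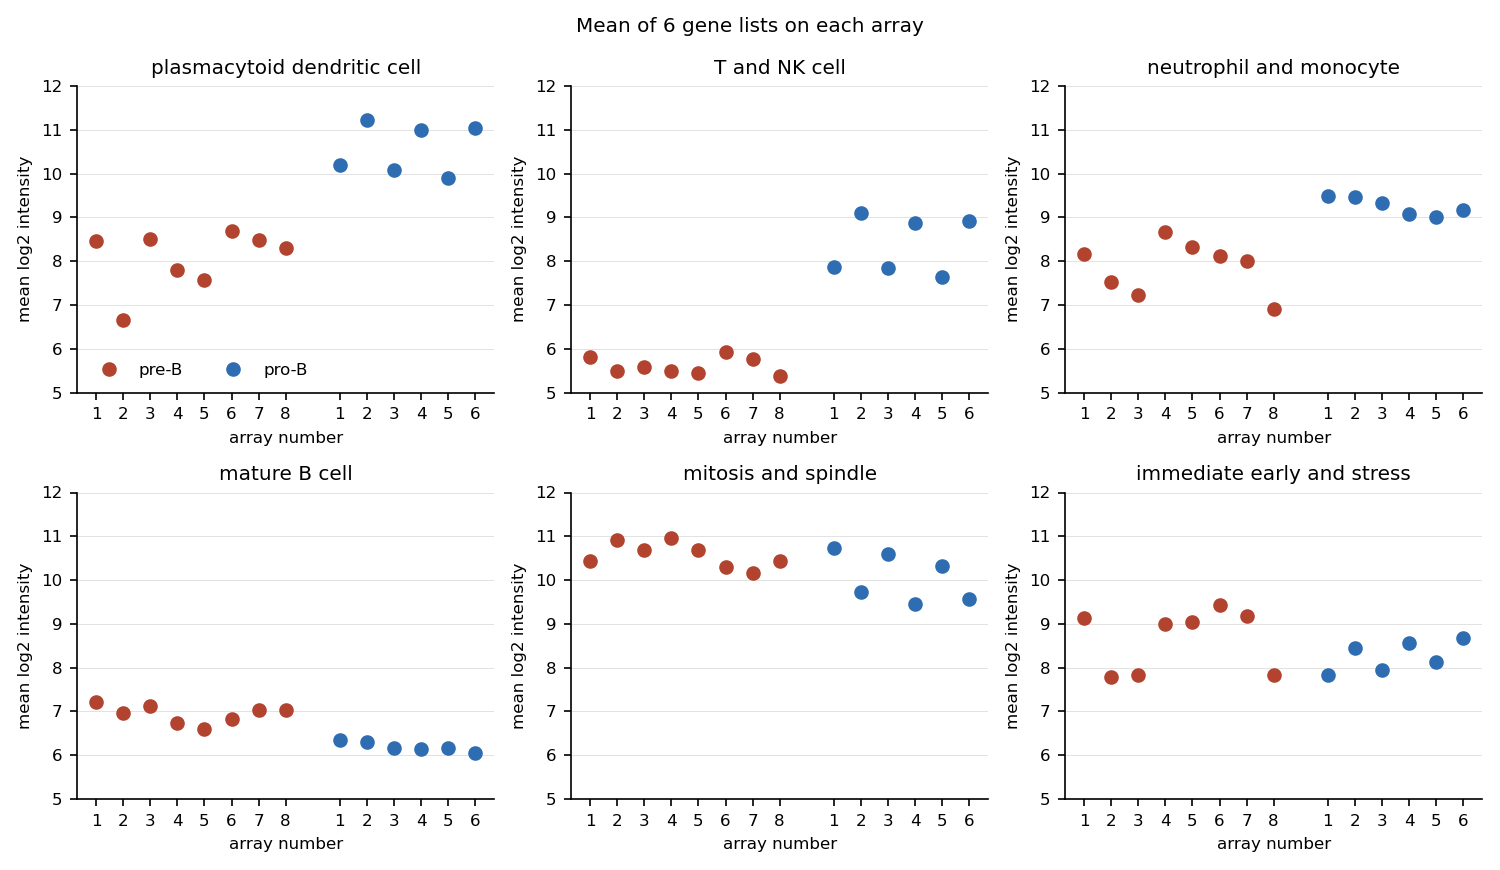
Mean log2 intensity of 6 gene lists (vertical axes) on each array (horizontal axes, pre-B arrays 1 to 8 and then pro-B arrays 1 to 6). Pro-B arrays 2, 4 and 6 are the highest in pDC and in T and NK markers and the lowest in mitosis genes, and the pre-B and pro-B arrays do not overlap in the first 4 lists.

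The sort gene was measured as a check of the labels. Spn, which encodes CD43, lay between 4.94 and 5.74 (median 5.26) on pre-B arrays and between 6 and 6.96 (median 6.53) on pro-B arrays. It fell by 1.197 in pre-B cells (SE 0.18, adjusted p = 1.57e-05), and since the gate used it this is no finding. Ptprc, whose B220 isoform marks both gates, was at 10.54 ± 0.16 on pre-B and 10.96 ± 0.36 on pro-B arrays (SD), and its call (-0.42) was lost without pro-B arrays 2, 4 and 6 (-0.09).

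Among surface genes that the gates did not use, Il2ra and Cd2 rose. Il2ra encodes CD25, the interleukin-2 receptor chain by which pre-B cells are often recognised. It lay between 9.25 and 10.16 (median 9.85) on pre-B arrays and between 5.05 and 6.54 (median 5.87) on pro-B arrays. The groups were far apart, a 16.0-fold rise (difference 3.999, SE 0.26, adjusted p = 1.63e-10). Cd2, an adhesion receptor of lymphocytes, lay between 10.08 and 10.76 (median 10.54) on pre-B arrays and between 8.13 and 9.49 (median 8.90) on pro-B arrays. Its groups did not overlap either, and it rose 3.17-fold (adjusted p = 2.27e-07); Cd2 was among the 31 genes called with the marker covariate, where its difference was 3.34 against 1.66 without it. Enpep (BP-1), an aminopeptidase of early B cells, was 0.70 higher, a call lost without any 1 of 8 of the 14 arrays, with differences of 0.55 to 0.71, and without pro-B arrays 2, 4 and 6 (0.15).

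Of the 24 B-cell surface genes measured, 9 rose, 6 fell and 9 were not called (median 0.35). Receptors of later B cells were among those that rose. Ms4a1 (CD20), a membrane protein of B cells, lay at 8.63 to 9.51 (median 9.24) on pre-B and 7.39 to 7.85 (median 7.73) on pro-B arrays, with no overlap. Cd40, the receptor for T-cell help, rose 4.18-fold, and Tnfrsf13c, the BAFF receptor that supports B-cell survival, rose 2.62-fold (8.67 ± 0.40 and 10.87 ± 0.14 on pre-B, 6.61 ± 0.18 and 9.48 ± 0.23 on pro-B arrays, SD). Cd180, a Toll-like receptor relative, fell by 1.79, and the tetraspanin Cd9 fell by 1.33. The list of mature B-cell markers had 4 of 9 genes higher and 1 lower (median 0.49), with list means of 6.59 to 7.21 on pre-B and 6.05 to 6.34 on pro-B arrays. Cd55, which restrains complement, rose 3.94-fold, and Ccr7, the receptor that guides lymphocytes into lymph nodes, rose 3.51-fold. The Ccr7 call was lost without pro-B arrays 2, 4 and 6 (0.97).

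Receptors and factors of progenitors were lower: of 23 measured, 13 fell, 3 rose and 7 were not called (median -0.71). Flt3, the cytokine receptor of early lymphoid progenitors, lay between 4.40 and 6.61 (median 5.72) on pre-B arrays and between 8.30 and 10.60 (median 9.55) on pro-B arrays. No pre-B value reached a pro-B value, and Flt3 fell by 3.85 (14.5-fold lower, SE 0.41, adjusted p = 1.24e-07). Like the pDC list mean, Flt3 was highest on pro-B arrays 2, 4 and 6 (9.77 to 10.60) and lowest on pre-B array 2 (4.40). Without these pro-B arrays its difference was -3.30, and the part of pDC in it was not tested. Kit, the stem cell factor receptor, lay between 2.81 and 3.59 (median 3.46) on pre-B and between 5.61 and 6.53 (median 5.95) on pro-B arrays and fell by 2.72. Its pre-B values were dim, as were those of Cd34 (-1.99) and Hoxa9 (-3.31), so the sizes of these falls are not resolved. Cd34 is a sialomucin of blood progenitors and Hoxa9 a homeobox factor of the same cells. Erg, an ETS factor of stem and progenitor cells, fell 3.76-fold, with 5.49 ± 0.55 on pre-B and 7.40 ± 0.23 on pro-B arrays (SD). Csf1r, a receptor of the monocyte lineage, fell by 2.63, a call lost without any 1 of 8 arrays (-2.71 to -2.45) and without pro-B arrays 2, 4 and 6 (-2.04).

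The 3 of 23 progenitor genes that rose were Sox4, Mycn and Myb, beside 17.9% of all genes called higher. Sox4, a high-mobility-group factor that B-cell development needs, lay at 11.85 to 12.60 (median 12.29) on pre-B and 10.94 to 11.69 (median 11.17) on pro-B arrays. Its groups did not overlap, and it rose by 0.97 (adjusted p = 0.00377). Mycn, a Myc relative, rose by 0.97 and Myb, which early B cells require, by 0.45, both with overlapping groups. The Myb call was lost without pro-B arrays 2, 4 and 6 (0.40).

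Genes of the pre-B receptor and its assembly moved in both directions. Of 6 measured, Vpreb3, Cd79a and Cd79b rose, Igll1 fell and Vpreb1 and Ighm were not called (median 0.59). Without pro-B arrays 2, 4 and 6, 2 rose and 0 fell (median 0.35). Run 1 alone gave 3 higher and 2 lower, as did run 2 alone, the lower ones being Igll1 and Vpreb1. Windows of 250 bases before the start site were matched for 4 of these genes, and they are shown because the genes, listed together, differed in direction. Capitals mark the core motif of the factor EBF1, CCCNNGGG, which reads the same on both strands, and the octamer of POU factors, ATGCAAAT, searched on both strands. The octamer was chosen after the Vpreb3 window had been read, and in no window of the table did the 2 motifs overlap. The windows are RefSeq sequence of build GRCm38.p6, written 5′ to 3′ on the strand of the gene.
Vpreb3, chr10:75948050-75948299, plus strand: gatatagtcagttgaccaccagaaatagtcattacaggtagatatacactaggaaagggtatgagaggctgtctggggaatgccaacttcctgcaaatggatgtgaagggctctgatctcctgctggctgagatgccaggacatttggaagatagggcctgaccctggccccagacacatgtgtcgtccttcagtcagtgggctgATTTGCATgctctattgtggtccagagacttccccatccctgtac
Cd79a, chr7:24897247-24897496, plus strand: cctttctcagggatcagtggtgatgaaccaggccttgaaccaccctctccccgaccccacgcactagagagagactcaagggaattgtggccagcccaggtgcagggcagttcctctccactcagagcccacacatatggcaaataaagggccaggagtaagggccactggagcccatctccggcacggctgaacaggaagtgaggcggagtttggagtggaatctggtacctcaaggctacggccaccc
Igll1, chr16:16863986-16864235, minus strand: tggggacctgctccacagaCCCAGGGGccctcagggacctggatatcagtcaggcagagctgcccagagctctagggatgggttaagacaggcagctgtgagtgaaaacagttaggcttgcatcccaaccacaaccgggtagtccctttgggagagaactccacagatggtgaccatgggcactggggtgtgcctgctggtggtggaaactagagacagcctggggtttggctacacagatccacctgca
Vpreb1, chr16:16869256-16869505, minus strand: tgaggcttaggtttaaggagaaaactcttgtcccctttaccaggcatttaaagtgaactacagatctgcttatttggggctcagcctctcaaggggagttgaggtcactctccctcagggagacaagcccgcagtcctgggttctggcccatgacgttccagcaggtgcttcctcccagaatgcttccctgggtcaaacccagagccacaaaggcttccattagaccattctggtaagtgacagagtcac
The EBF1 core was found in the Igll1 window, starting at position -231 from the start site, and in none of the other 3. It stood in 11.8% of all 32851 windows. Counted by gene, it stood in 17.8% of the 9887 measured genes with a window, in 19.6% of the 1734 called higher and in 19.4% of the 1531 called lower. The octamer stood in the Vpreb3 window at position -45, in its reverse complement, and in 1.6% of all windows. These matches are letters in a window and not measured sites. Only exact matches were counted, so near matches were passed over, such as ctcaaggg in the Cd79a and Vpreb1 windows. A window without the core may therefore still hold an EBF1 site.

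Vpreb3, which stays inside the cell and binds immature receptor chains, lay between 12.12 and 12.70 (median 12.42) on pre-B arrays and between 10.68 and 12.10 (median 11.46) on pro-B arrays. The groups did not overlap by a narrow margin, and Vpreb3 rose 2.01-fold (SE 0.20, adjusted p = 0.00047). Cd79b, a signal chain of the receptor, lay between 12.18 and 12.62 (median 12.42) on pre-B and between 10.63 and 11.93 (median 11.27) on pro-B arrays. It rose 2.32-fold with no overlap (adjusted p = 5.16e-07). Its partner Cd79a rose 2.16-fold (11.79 ± 0.45 on pre-B, 10.68 ± 0.86 on pro-B arrays, SD) with overlapping groups, and its call was lost without pro-B arrays 2, 4 and 6 (0.51).

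Igll1 (lambda 5) lay between 9.49 and 10.85 (median 9.90) on pre-B arrays and between 10.94 and 11.69 (median 11.24) on pro-B arrays, with no overlap. It fell by 1.21 (SE 0.46), with an adjusted p of 0.0476 by limma, a call lost without any 1 of 12 of the 14 arrays (-1.27 to -1.12) and without pro-B arrays 2, 4 and 6 together (-1.44). Igll1 spread more on the immature B arrays of the same fit (SD 1.66) than on pre-B (SD 0.52) and pro-B arrays (SD 0.30). Its other probe set was 0.15 higher in pre-B cells. Vpreb1, which pairs with Igll1, lay between 11.30 and 12.27 (median 11.63) on pre-B and between 12.52 and 12.92 (median 12.73) on pro-B arrays. The groups did not overlap, yet the difference of -1.002 was not called with the spread of all normal stages (adjusted p = 0.0734). Ighm, the mu heavy chain constant region, was at 12.79 ± 0.10 on pre-B and 12.62 ± 0.13 on pro-B arrays (SD) and not called (0.17). Its 11 probe sets ranged between differences of -6.23 and 0.55, so the gene has no single direction here.

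Of 13 genes of the recombination machinery 5 rose, 1 fell and 7 were not called (median 0.17). Over all genes 17.9% were called higher and 15.7% lower. Without pro-B arrays 2, 4 and 6, 4 rose and 3 fell, beside 852 and 1389 of all 12393 genes. Rag1, the catalytic chain of the recombinase, lay between 11.06 and 11.94 (median 11.71) on pre-B arrays and between 9.72 and 10.21 (median 9.90) on pro-B arrays. The groups were separate, and Rag1 rose 3.27-fold (SE 0.29, adjusted p = 8.36e-05). Rag2, its partner, rose 2.19-fold, at 9.005 to 10.04 (median 9.32) on pre-B and 7.85 to 8.65 (median 8.30) on pro-B arrays, again without overlap. Polm, a DNA polymerase that acts in light chain joins, lay between 8.41 and 9.83 (median 9.20) on pre-B and between 5.63 and 6.86 (median 6.06) on pro-B arrays. It rose 8.21-fold (adjusted p = 1.14e-08). Dntt (TdT), which adds bases without a template to heavy chain joins, ran the other way. It lay between 8.61 and 10.79 (median 9.84) on pre-B arrays and between 11.57 and 11.90 (median 11.70) on pro-B arrays, and fell by 1.97 with no overlap (3.92-fold lower, adjusted p = 0.00164). Xrcc6 (Ku70), which holds broken DNA ends, rose 2.15-fold. Hmgb2, a cofactor of RAG, was 0.36 higher and not called (adjusted p = 0.0642).

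**Figure D3:**
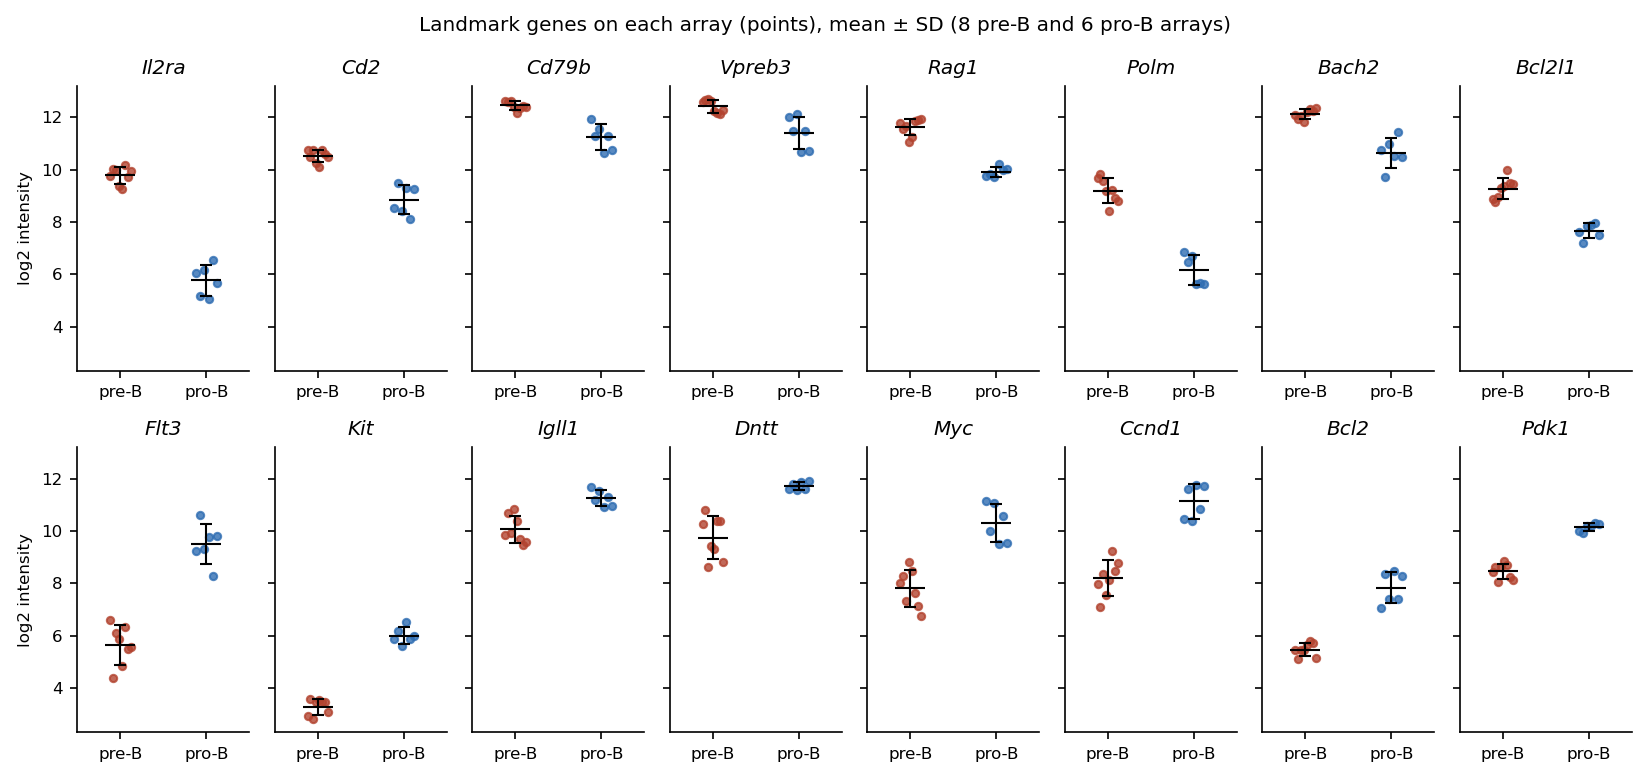
Log2 intensity (vertical axis) of 16 genes on each pre-B array (left of each panel) and pro-B array (right), with the mean and SD of the 8 and 6 arrays. The pre-B points lie above every pro-B point for the 8 genes of the top row and below every pro-B point for the 8 genes of the bottom row.

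Signal proteins below the receptor did not move together. Of 20 measured, 5 rose, 4 fell and 11 were not called (median -0.01), beside 17.9% of all genes called higher and 15.7% lower. Without pro-B arrays 2, 4 and 6, 3 rose and 3 fell, beside 852 and 1389 of all 12393 genes. Syk, the kinase that docks on Cd79a and Cd79b, lay at 11.05 to 12.22 (median 11.65) on pre-B and 9.74 to 10.88 (median 10.40) on pro-B arrays, and rose 2.51-fold without overlap (adjusted p = 2.05e-05). Blk, a Src kinase of B cells, rose by 1.30, the kinase Btk by 0.59 and the adaptor Blnk by 0.39, all with overlapping groups. Those 3 calls were lost without pro-B arrays 2, 4 and 6, at 0.58, 0.40 and 0.38. Fyn, a Src kinase of T and NK as well as B cells, fell 2.70-fold with no overlap. Zap70, the Syk relative of T and NK cells, fell by 1.66, while its other probe set was 0.32 higher. The inhibitory phosphatase Ptpn6 fell by 0.92, and Nfatc1, a factor driven by calcium signals, fell by 0.57. The call of Nfatc1 was lost without pro-B arrays 2, 4 and 6 (-0.27).

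Of 14 genes of the interleukin-7 receptor, JAK and STAT5 pathway, 3 rose, 6 fell and 5 were not called (median -0.31). Without pro-B arrays 2, 4 and 6 the counts were 3 higher and 3 lower, with a median of -0.08. Il7r, the receptor chain that pro-B and large pre-B cells need for growth, was at 11.91 ± 0.12 on pre-B and 11.70 ± 0.11 on pro-B arrays (SD) and not called (0.22, adjusted p = 0.405). Cish, a feedback inhibitor that STAT5 induces, lay at 4.86 to 5.51 (median 5.05) on pre-B and 5.69 to 6.93 (median 6.25) on pro-B arrays and fell 2.35-fold. Its groups did not overlap. Jak3, the kinase of the common gamma chain, fell by 1.16, a call lost without pro-B arrays 2, 4 and 6 (-1.17). The survival kinases Pim1 and Pim2 rose by 0.86 and 0.85 with overlapping groups.

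Survival genes of the BCL2 family changed in both directions. Of 13 measured, 6 rose, 3 fell and 4 were not called (median 0.19). Bcl2, the founding survival protein, lay between 5.12 and 5.81 (median 5.46) on pre-B arrays and between 7.08 and 8.46 (median 7.85) on pro-B arrays. It fell by 2.36 with no overlap (5.14-fold lower, SE 0.26, adjusted p = 2.67e-07). Bcl2l1 (BCL-xL), a survival protein as well, lay between 8.77 and 9.97 (median 9.34) on pre-B and between 7.20 and 7.97 (median 7.73) on pro-B arrays. It rose 3.03-fold, also with no overlap (adjusted p = 5.69e-07). Bcl2l2 (BCL-w) fell by 2.04, while 1 of its 4 probe sets was 0.24 higher. Bid, which links death receptors to mitochondria, fell 3.01-fold, and the killers Bmf and Bcl2l11 (BIM) rose by 0.98 and 0.41. Bmf was dim in pro-B cells, and Bcl2l11 was not called when pro-B array 1 or 3 was left out (0.35 each). Mcl1 rose by 0.31.

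Transcription factors of the B lineage formed the list with the largest share of rises: 17 of 28 rose, 7 fell and 4 were not called (median 0.46). The count was 13 higher and 5 lower without pro-B arrays 2, 4 and 6. Bach2, a repressor that holds B cells back from plasma cell fate, lay between 11.82 and 12.36 (median 12.13) on pre-B arrays and between 9.72 and 11.43 (median 10.63) on pro-B arrays. It rose 2.78-fold with no overlap (SE 0.17, adjusted p = 4.45e-07). Foxo1, which switches on the Rag genes, lay at 10.76 to 11.36 (median 11.10) on pre-B and 9.88 to 10.43 (median 9.998) on pro-B arrays and rose 2.05-fold (adjusted p = 6.95e-08). Tcf3 (E2A), a helix-loop-helix factor at the base of the B-cell program, rose 2.29-fold, and Ebf1, its partner in that program, rose 1.63-fold, both without overlap. Pax5, the factor of B-cell commitment, rose 1.63-fold at a low intensity (5.62 ± 0.39 on pre-B, 4.92 ± 0.36 on pro-B arrays, SD). The Pax5 call was lost without any 1 of 5 arrays (0.58 to 0.71) and without pro-B arrays 2, 4 and 6 (0.66).

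Irf4 and Irf8, related factors that act together in pre-B cells, moved in opposite directions. Irf4 lay between 12.71 and 13.11 (median 12.94) on pre-B arrays and between 11.44 and 12.65 (median 12.05) on pro-B arrays and rose 1.88-fold. Irf8 lay between 9.97 and 10.88 (median 10.33) on pre-B and between 11.72 and 12.93 (median 12.47) on pro-B arrays and fell 4-fold (adjusted p = 1.49e-08). Neither overlapped, and Irf8 is also a pDC and monocyte gene that stood in the pDC list. Spib, another gene of that list, rose by 0.47. Relb, an NF-kappa-B chain, rose 2.70-fold, and Klf2, a factor of resting lymphocytes, rose 2.28-fold with overlapping groups. Klf2 was also called with the marker covariate, where its difference was 4.08 against 1.19 without it. Lef1, a Wnt-pathway factor of early B cells, fell by 0.97, a call lost without any 1 of 6 arrays (-0.93 to -0.81). Bcl6, a repressor in pre-B and germinal centre cells, was not called (0.17, adjusted p = 0.4).

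Homing genes changed in both directions, with 7 of 20 higher, 9 lower and 4 not called (median -0.45). S1pr1, which leads lymphocytes out of tissues, lay at 5.53 to 7.42 (median 6.83) on pre-B and 5.19 to 5.38 (median 5.21) on pro-B arrays, and rose 2.80-fold without overlap (adjusted p = 4.46e-05). Rgs2, which dampens G-protein signals, rose 2.87-fold, and Cxcr4, which holds B-cell precursors in the marrow, rose by 0.53. Itgb7, a gut-homing integrin chain, fell 9.25-fold, and Ccr9, a gut-homing chemokine receptor and pDC marker, fell 9.18-fold. Itgal, a chain of the integrin LFA-1, fell 4.90-fold (4.57 ± 0.30 on pre-B, 6.86 ± 0.73 on pro-B arrays, SD). These 3 genes did not overlap between the groups.

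Of 38 genes of the mitotic spindle 9 rose, 0 fell and 29 were not called, beside 17.9% of all genes called higher. All 38 differences were above 0 (median 0.50). Run 1 alone gave 13 calls (median 0.59) and run 2 alone 0 (median 0.4). Over all genes run 1 gave 2427 calls, 1435 of them lower, and run 2 gave 1599, 541 of them higher. Foxm1, a factor that drives mitotic genes, was at 8.71 ± 0.34 on pre-B and 7.91 ± 0.71 on pro-B arrays (SD) and rose by 0.80. Kif2c, a spindle motor, rose by 0.78, and Mki67, the proliferation marker, was 0.36 higher and not called (adjusted p = 0.159). Of 33 replication genes 2 rose, Rrm2, which makes deoxynucleotides, by 0.45 and Rfc4, which loads the replication clamp, by 0.49 (median of the list 0.24). Without pro-B arrays 2, 4 and 6, which were lowest in these genes, 0 mitosis and 0 replication genes were called by limma, with medians of 0.05 and -0.27. Foxm1 was then at 0.32, Kif2c at 0.07, Rrm2 at 0.35 and Rfc4 at 0.00. Ezh2, the Polycomb methyltransferase of dividing precursors, rose by 0.67 and likewise lost its call (0.30); its list of 17 had 5 genes higher and 3 lower, and 0 and 3 without these arrays.

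Of 23 regulators of entry into the cell cycle 8 rose, 3 fell and 12 were not called (median 0.36). These counts stand beside 17.9% of all genes called higher and 15.7% lower. Ccnd1 (cyclin D1) lay between 7.12 and 9.25 (median 8.24) on pre-B arrays and between 10.37 and 11.77 (median 11.23) on pro-B arrays, and fell 7.59-fold (SE 0.29, adjusted p = 5.99e-08). Ccnd2 (cyclin D2) lay between 8.80 and 9.62 (median 9.002) on pre-B and between 10.62 and 11.23 (median 10.99) on pro-B arrays and fell 3.76-fold, a call that held with the marker covariate. Neither overlapped. Ccnd3 (cyclin D3), which pre-B cells require to expand, was at 10.99 ± 0.60 on pre-B and 10.99 ± 0.55 on pro-B arrays (SD), and its difference was 0.00 (SE 0.29, adjusted p = 0.998). Cdk6, the kinase of the D cyclins, fell by 1.15. The brakes Cdkn1b (p27), Rb1 and Btg2 rose by 0.70, 0.73 and 1.03, each without overlap.

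Myc, the driver of growth, lay between 6.77 and 8.83 (median 7.83) on pre-B arrays and between 9.49 and 11.13 (median 10.28) on pro-B arrays. It fell by 2.49 with no overlap (5.62-fold lower, adjusted p = 2.93e-06). Of the 29 genes of the Myc network and of ribosome production, 13 fell, 3 rose and 13 were not called (median -0.35), and without pro-B arrays 2, 4 and 6 17 fell and 2 rose (median -0.74). The 3 that rose were Mxd3, Mxi1 and Mxd4, of the Max-binding proteins that oppose Myc; Mxi1 rose by 0.70 and Mxd4 by 0.71. Gnl3 (nucleostemin), a nucleolar protein, fell 2.11-fold with no overlap, and Polr1b, a chain of RNA polymerase I, fell 2.70-fold.

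Glycolysis genes were lower as a group: 8 of 14 fell, 0 rose and all 14 differences were below 0 (median -0.67), with 11 falls without pro-B arrays 2, 4 and 6. Pdk1, which keeps pyruvate out of mitochondria, lay between 8.07 and 8.86 (median 8.53) on pre-B arrays and between 9.91 and 10.29 (median 10.20) on pro-B arrays. It fell 3.21-fold with no overlap (adjusted p = 3.02e-08). Hk2 and Hk1, which trap glucose as its phosphate, fell 2.74-fold and 1.88-fold, also without overlap. The glucose transporter Slc2a3 fell by 1.78, but the highest of its 4 probe sets was at 0.01. Of 34 genes of oxidative phosphorylation 0 were called by limma (median -0.04), and 0 rose and 3 fell without pro-B arrays 2, 4 and 6.

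**Figure D4:**
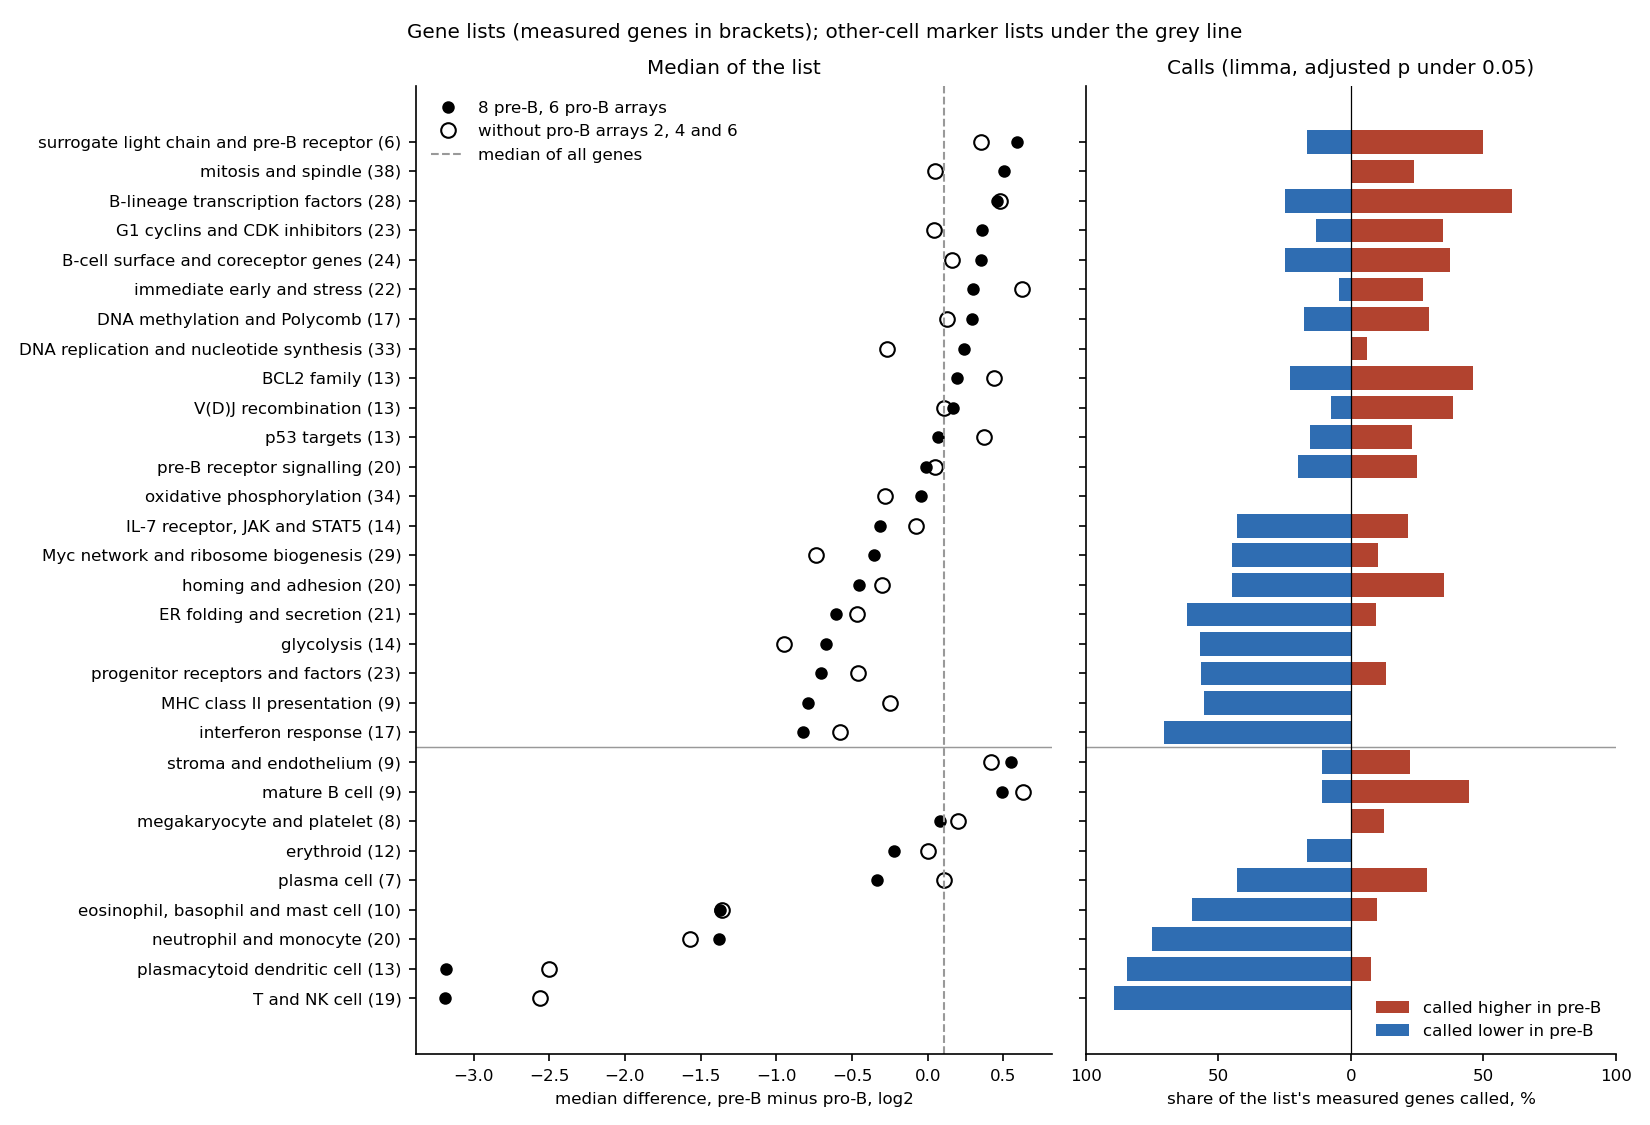
Median difference of each gene list (left, log2, filled points for all arrays and open points without pro-B arrays 2, 4 and 6) and the share of its measured genes called higher or lower in pre-B cells (right, percent). The dashed line is the median of all genes, 0.11. The marker lists of T and NK cells and of pDC lie furthest below it.

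Genes of antigen presentation and of the interferon response were lower. Of 9 MHC class II genes 5 fell and 0 rose (median -0.79), and 3 fell without pro-B arrays 2, 4 and 6 (median -0.25). H2-DMa, which loads peptides, fell 3.23-fold and H2-Oa, which restrains that loading, 3.25-fold, and Cd74, the invariant chain, fell by 0.79 with overlapping groups, a call lost without these arrays (-0.42). H2-Aa, a class II chain, was 0.57 lower in pre-B cells (-0.57) and not called (adjusted p = 0.0629). Of 17 interferon response genes 12 fell and 0 rose (median -0.83), and 4 fell without those arrays. Bst2 (tetherin), an interferon-induced membrane protein that is also the pDC marker PDCA-1, lay at 7.47 to 9.39 (median 8.71) on pre-B and 11.11 to 12.44 (median 11.88) on pro-B arrays. It fell 10.4-fold, Usp18, which removes the modifier ISG15, 6.77-fold, the antiviral Mx1 5.45-fold and Irf7, the interferon regulator of pDC, 4.68-fold, and none of these 4 overlapped. The pDC list means given above moved with both lists, and their part in them was not tested.

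Genes of protein folding and secretion fell as well, 13 of 21, with 2 higher (median -0.61). Xbp1, which expands the secretory system, lay at 7.68 to 9.26 (median 8.75) on pre-B and 9.30 to 11.20 (median 10.31) on pro-B arrays and fell 3.08-fold, and Manf, a protein of the endoplasmic reticulum, fell 2.15-fold. Herpud1, which helps to degrade misfolded proteins, rose by 0.78. Of 13 p53 targets 3 rose and 2 fell (median 0.07), beside 17.9% of all genes called higher and 15.7% lower. Trp53inp1, a stress protein, rose by 0.83 and Mdm2, which degrades p53, by 0.41. Of 22 immediate early and stress genes 6 rose and 1 fell (median 0.30). Dusp2, a phosphatase of MAP kinases, lay at 8.73 to 10.45 (median 9.87) on pre-B and 7.35 to 8.17 (median 7.74) on pro-B arrays and rose 3.94-fold. Gadd45a, a growth arrest gene, rose 2.59-fold without overlap, Ier3, an early response gene, rose 2.86-fold and Egr2 fell by 1.04. Egr2 lost its call without any 1 of 8 arrays (-1.04 to -0.85) and without pro-B arrays 2, 4 and 6 (-0.39). The mean of the immediate early list was 7.79, 7.83 and 7.84 on pre-B arrays 2, 3 and 8, 8.99 to 9.42 on the other 5 pre-B arrays and 7.83 to 8.67 on pro-B arrays.

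By size alone, the 12 largest rises without overlap were in Reln, Il2ra, Col5a3, Gadd45g, Polm, Gpr12, Fmn2, Cldn10, Egfl6, Lima1, Gh and Slc12a3. Reln, a secreted protein best known from the brain, lay between 8.53 and 9.81 (median 9.06) on pre-B arrays and between 4.39 and 5.03 (median 4.75) on pro-B arrays, and rose 20.8-fold (SE 0.32, adjusted p = 9.65e-10). Gadd45g, a relative of Gadd45a, lay between 9.16 and 9.85 (median 9.60) on pre-B and between 6.13 and 6.59 (median 6.42) on pro-B arrays, and rose 9.08-fold with the smallest spread of these genes (SE 0.13, adjusted p = 1.58e-14). Both were called with the marker covariate, where estimates are extrapolations as said above. Gpr12, a G-protein-coupled receptor, rose 8.06-fold, Fmn2, an actin-nucleating formin, 7.83-fold, Cldn10, a tight junction claudin, 7.42-fold and Lima1 (EPLIN), an actin-binding protein, 6.80-fold. The secreted protein Egfl6 rose 7.35-fold with wide pro-B values (4.43 ± 1.51, SD), Gh (growth hormone) 6.27-fold and Slc12a3, a sodium and chloride carrier of the kidney, 6.19-fold. Egfl6 lay at 2.84 to 3.28 on pro-B arrays 2, 4 and 6 and at 5.44 to 6.14 on pro-B arrays 1, 3 and 5. Without pro-B arrays 2, 4 and 6 its difference was 1.52, against 2.88 with them. Col5a3, a collagen chain, rose by 3.77, but it was dim in pro-B cells and its other probe set was 0.26 higher.

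The 12 largest falls without overlap were in Gbp8, Ighg3, Hs3st1, Clec10a, Lair1, Fyb, Itgax, Ccl5, Ppfia4, Igha, Ncr1 and Gzma. Gbp8, a guanylate-binding protein, lay between 2.94 and 5.48 (median 4.13) on pre-B and between 8.05 and 9.66 (median 8.95) on pro-B arrays and fell by 4.76, with dim pre-B values. Ccl5, Gzma and Ncr1 are a chemokine, a granule protease and a receptor of NK and cytotoxic cells, and they fell 17.0-fold, 16.6-fold and 16.6-fold. Itgax (CD11c), an integrin of dendritic cells, fell 17.0-fold, Clec10a, a lectin of dendritic cells and macrophages, 18.5-fold and Lair1, an inhibitory receptor in the pDC list, 18.2-fold. Fyb, an adaptor of T and myeloid cells, fell 17.6-fold, Hs3st1, which sulphates heparan, 18.9-fold and Ppfia4, a liprin, 16.9-fold. The calls of Clec10a and Fyb were lost without pro-B arrays 2, 4 and 6, with differences of -3.56 and -3.50.

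Igha and Ighg3, the constant regions of switched antibodies, had the widest values among the large falls. Igha lay between 4.24 and 10.999 (median 10.08) on pre-B arrays and between 12.74 and 13.89 (median 13.57) on pro-B arrays and fell by 4.07 (SE 1.31, adjusted p = 0.0216). Ighg3 lay between 4.10 and 8.90 (median 6.66) on pre-B and between 9.81 and 12.21 (median 11.18) on pro-B arrays and fell by 4.46, while the highest of its 4 probe sets was at 0.13. The groups did not overlap in either gene. Jchain, which joins IgA and IgM chains and is also made by pDC, fell by 3.51. Of 7 plasma cell genes 3 fell and 2 rose (median -0.34), and 1 fell and 1 rose without pro-B arrays 2, 4 and 6 (median 0.11). Igha and Jchain lost their calls without those arrays (-3.71 and -3.03).

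Large falls among the other-cell markers had the same direction in both runs. This is largely built in, since the genes were called on these same arrays. Thy1, a T and NK surface protein, lay at 4.18 to 5.51 (median 4.49) on pre-B and 7.84 to 8.99 (median 8.45) on pro-B arrays and fell by 3.78, by 3.82 within run 1 (-3.82) and 3.74 within run 2 (-3.74). Cd7 and Tlr7, a surface protein and an RNA sensor of pDC, fell 12.5-fold and 13.8-fold, and the pre-B arrays kept medians of 8.28 and 5.84. Cebpa, a factor of myeloid progenitors, fell 6.15-fold and Ccr2, a chemokine receptor of monocytes, 5.81-fold, and both calls were lost without pro-B arrays 2, 4 and 6 (-2 and -1.98). Of 10 eosinophil, basophil and mast cell genes 6 fell and 1 rose (median -1.38). Mcpt8, a basophil protease, fell 6.07-fold and Prg2, an eosinophil granule protein, 4.40-fold. Prg2 was not called without pro-B arrays 2, 4 and 6 (-2.53). Prg3, a relative of Prg2 from the same granules, instead rose 4.69-fold, at 7.89 to 8.94 (median 8.38) on pre-B and 5.16 to 7.05 (median 6.14) on pro-B arrays. Its groups did not overlap. Of 12 erythroid genes 2 fell, among them Car1, a carbonic anhydrase, by 1.89, and none rose. Of 8 megakaryocyte genes 1 rose, and of 9 stroma and endothelium genes 2 rose and 1 fell, with medians of 0.08 and 0.55.

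Levels in later stages were read beside these differences. In the order of development, pro-B, pre-B, immature and mature cells, Igll1 averaged 11.27, 10.06, 7.54 and 6.53, and Vpreb1 averaged 12.73, 11.73, 9.40 and 8.01. Rag1 was highest in pre-B cells, at 9.91, 11.62, 8.22 and 7.26 over the same stages. Il2ra likewise stood at 5.78, 9.78, 8.66 and 5.90. Bcl2 was lowest in pre-B cells, at 7.84, 5.48, 7.03 and 8.49 in this order. Bcl2l1 was highest there, at 7.67, 9.27, 8.06 and 6.84 in that order. Cd40 averaged 6.61, 8.67, 11 and 11.30, where the last 2 stages lie close together. The immature and mature levels are descriptions, and mature B rests on 3 arrays.

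**Figure D5:**
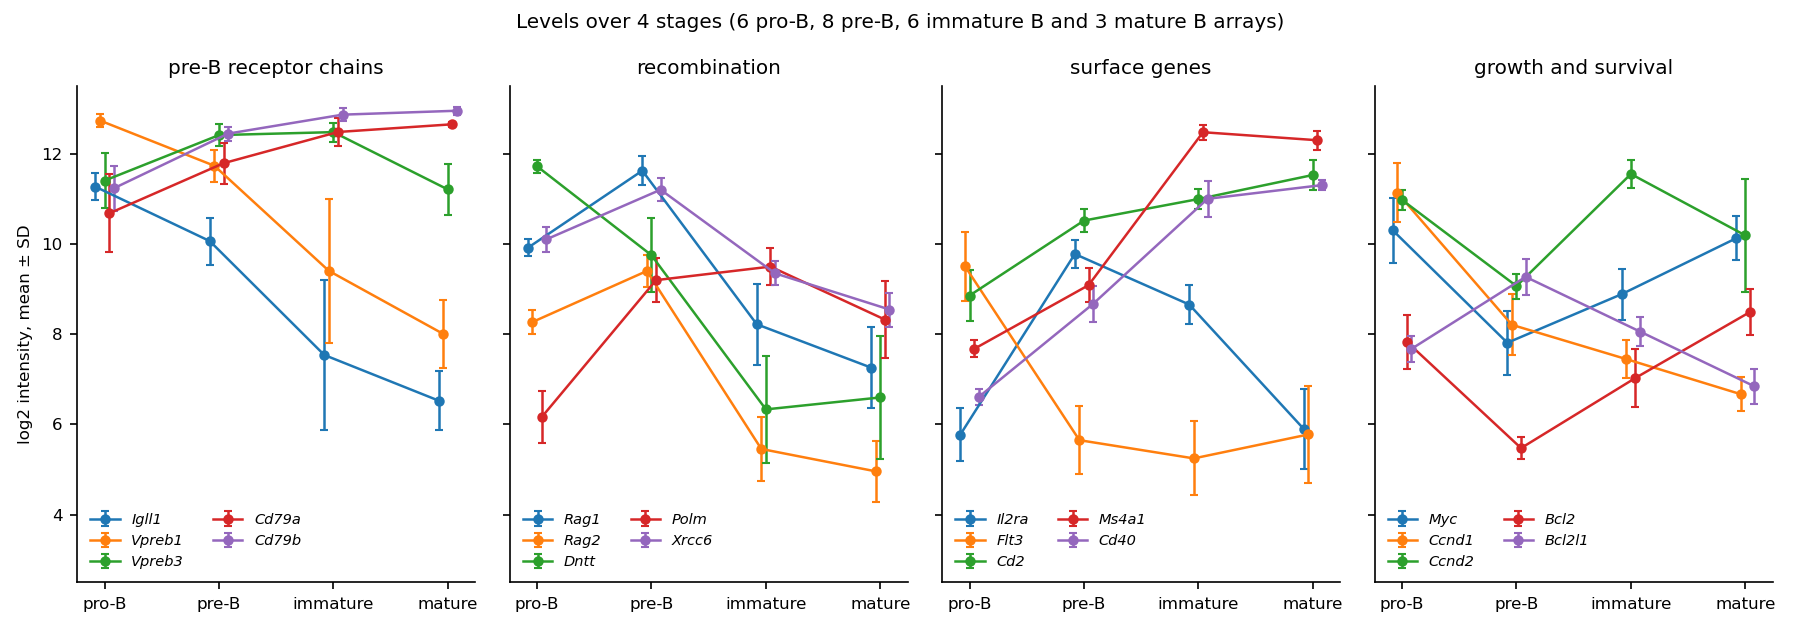
Mean log2 intensity ± SD (vertical axis) of 20 genes over 4 stages, from left to right pro-B, pre-B, immature and mature (horizontal axis; 6, 8, 6 and 3 arrays). Rag1, Rag2, Il2ra and Bcl2l1 peak in pre-B cells, where Bcl2, Myc and Ccnd2 are lowest.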

How the data were processed

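Total RNA of sorted cells was amplified and hybridised to Affymetrix arrays. The deposited values are intensity values on a linear scale, made with RMA, per the submitters' processing notes, whose version is not given in the sources used here. They were taken to log2. Of 22690 probe sets, 64 controls, 691 with several symbols and 1555 with none were left out, and the 20380 kept gave 12393 genes, the brightest probe set on average over the 39 arrays standing for a gene. Groups came from the sample titles. Differences were fitted with limma 3.58.1 (R 4.3.3) over the 23 normal arrays, with moderated variances following intensity and Benjamini-Hochberg adjustment over all genes, and a threshold of 0.05; the procedure was tested on simulated data. The number of arrays limits the precision, dim signals leave the size of some differences unresolved, and probe sets of a gene can disagree. The gene lists and members were chosen with earlier results of these data known. Named genes are the 12 largest called differences without overlap in each direction, up to 4 called genes per direction and 2 uncalled genes of each list, and landmark genes of B-cell development; not all of them are described. Alternatives changed the arrays in the fit, the record run, the normalization, the filter on dim genes, the probe set rule, the variance prior, a marker covariate and a replicate block, and left out each array in turn.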

Additional observations from a re-analysis of the deposited data

Results flagged for a closer look

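In 7 of 348 checks of a gene or list within a group, 1 array lay far from the others of its group, and in all 7 it was pre-B array 2, on the low side. At the rate of this check, chance alone marks about 1 in 20 groups. Igha was at 4.24 on pre-B array 2, against 9.12 to 11 on the other pre-B arrays, and Jchain at 5.23, against 8.57 to 9.89. Fyb was at 3.61 (5.94 to 7.78 on the others), Clec10a at 3.71 (5.86 to 7.64), Lair1 at 3.19 (4.59 to 5.71) and Itgb7 at 4.98 (6.32 to 7.21). The mean of the plasma cell genes was 8.38 on that array, against 8.82 to 9.12 on the others. The same array had the lowest pDC list mean of the pre-B arrays, 6.65. Without it 4323 genes were called.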

How the results depend on the processing

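Fits of the 14 arrays, quantile normalization, other probe set rules and no intensity trend gave 3392 to 4407 calls, within 1.5 times the 4162 of the fit reported. With all arrays in the fit 2626 genes were called, 1309 of them higher. With the record run as a covariate 3334 were called higher. Run 1 alone gave 2427 calls, 1435 lower, and run 2 alone 1599 calls, 541 higher and 1058 lower. With the dimmest 40% of genes left out, 7436 were tested and 2515 called, 1010 higher. Without pro-B arrays 2, 4 and 6 there were 2241 calls, 852 higher. Leaving out each array in turn gave 3190 to 4833 calls, 1464 to 2798 higher and 1726 to 2035 lower, with the fewest without pro-B array 2. The marker covariate left 31 calls, 27 higher and 4 lower, and 77.4% of the 4162 genes kept their direction. The cause of these changes was not tested, except that fewer arrays or genes entered some of the fits.

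The replicate block over numbers 1 to 6 gave 2590 calls, 1045 higher. Same-numbered arrays correlated in their deviations at -0.581 to 0.475, and only numbers 5 and 6 matched best with their own. No pairing by number was seen in most numbers, but a pairing could exist without showing in this check.

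With the marker covariate 34 of the genes described above changed sign: Ptprc 0.53, Enpep -0.61, Vpreb3 -0.16, Cd79a -0.27, Hmgb2 -0.31, Blk -0.59, Fyn 0.09, Irf4 -0.19, Ccr7 -0.67, Cd180 0.39, H2-DMa 0.47, H2-Oa 0.44, Cd74 0.65, H2-Aa 1.28, Itgb7 0.37, Ccr9 1.04, Ccnd3 -1.14, Mki67 -0.59, Foxm1 -0.49, Kif2c -1.53, Ezh2 -0.41, Rfc4 -1.09, Egfl6 -1.58, Clec10a 0.85, Fyb 0.78, Igha 2.28, Egr2 3.17, Cd7 0.17, Tlr7 0.12, Cebpa 0.57, Ccr2 0.48, Jchain 0.91, Prg2 1.13, Car1 0.19. None of these 34 was called in that fit (limma, adjusted p from 0.263 for Egr2 to 0.97 for Tlr7). Of these genes Ccr9, Cd7, Tlr7, Cebpa and Ccr2 are among the markers averaged in the covariate, so their change was partly built in. Cdh5 was not among the genes followed through these settings. With probe sets ending in _x_at, _s_at or _a_at left out, Igll1 was at 0.15, Ighm at -4.39 and Slc2a3 at 0.01, and with the mean of all probe sets Ighm was at -2.42. Ccnd3 was at -0.08 in run 1, at -0.38 without pro-B arrays 2, 4 and 6, and at -0.16 to -0.04 without any 1 of 6 arrays. H2-Aa was called without pro-B array 3 or 5 (-0.70 to -0.67), Hmgb2 without pro-B array 3 (0.42) and Ighm without pro-B array 1 (0.21). Mxd4 lost its call without pro-B array 5 (0.54), Kif2c without pro-B array 2, 4 or 6 (0.61 to 0.68) and Rfc4 without any 1 of 4 arrays (0.38 to 0.46).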
